A study of Mus musculus with 16 samples.

Results

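Chloride and bicarbonate transport was read as the RNA of 10 genes: the anion exchangers Slc26a2, Slc26a3 and Slc26a6, the sodium-proton exchangers Slc9a2 and Slc9a3, the basolateral carriers Slc12a2 and Slc4a4, and the channels Cftr, Best2 and Ano1. The genes were taken by name, out of 54123 genes summed from the transcript counts, with no threshold on their values. They were chosen with earlier results of these data known. Counts of called genes beside the share of all genes are thus a description and no test of the set. All 10 passed the filter on low counts that left 15289 genes for testing. They were followed through 16 libraries of mouse colon organoids, which are epithelial cultures grown in gel from crypt cells, in 8 groups of 2 libraries. The groups combine the region of origin (proximal or distal colon), the guide RNA (Scramble-sgRNA as the control or Cdx2-sgRNA) and the medium (WENR-plus or WENR-minus). WENR-plus holds Wnt3a, EGF, Noggin and R-spondin, and WENR-minus lacks all of them. Every group shares the same source and history: female mice aged 8 weeks that carry a Cre-inducible allele and a tdTomato reporter, both heterozygous, with no Cre step described for these cultures, lentiviral Cas9 with the guide, and 4 months of culture that ended with 2 days in WENR-plus and 3 days in either medium. Both libraries of a group come from different mice. The Cdx2-sgRNA organoids were grown out of single cells with frameshifts in both Cdx2 alleles, and no such step is described for the Scramble-sgRNA organoids, so that the guide and the outgrowth of a clone cannot be told apart.

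The colon absorbs sodium chloride by pairing an apical sodium-proton exchanger with an apical chloride-bicarbonate exchanger, and it secretes chloride and bicarbonate by loading them across the basolateral membrane and releasing them through apical channels. In the mammalian colon the absorptive exchangers are typical of surface colonocytes, and the secretory carriers and Cftr are typical of the crypt. Cdx2 is a homeobox transcription factor that maintains the intestinal identity of this epithelium.

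Total counts ranged from 12465194 to 18922143 per library, and mitochondrial ribosomal RNA took 15.4 to 28.0% of them. Cdx2 itself had 142 and 127 CPM (counts scaled to library size after TMM) in proximal Scramble-sgRNA WENR-plus organoids and 29.9 and 33.3 CPM with Cdx2-sgRNA, a log2 fold change of -2.09 ± 0.21 (SE). In distal WENR-plus organoids it had 76.8 and 67.9 CPM with Scramble-sgRNA and 62.3 and 50.2 CPM with Cdx2-sgRNA, a log2 fold change of -0.36 ± 0.20 that did not pass the test (adjusted p = 0.858). In proximal WENR-minus organoids Cdx2 had 202.6 and 151 CPM with Scramble-sgRNA and 73.9 and 71.0 CPM with Cdx2-sgRNA. Both of the latter lie above the WENR-plus libraries of these cultures. In distal WENR-minus organoids it had 112.4 and 110 CPM with Scramble-sgRNA and 126.3 and 86.1 CPM with Cdx2-sgRNA, which overlap. A frameshift need not lower the RNA, so that these levels do not test the loss of the protein in the distal cultures. Of 10 colon epithelium markers, Epcam, Cdh1 and Krt8 had group means of at least 476 CPM, while Cdx1 had 0.702 and 0.366 CPM in the proximal Cdx2-sgRNA groups against 68.9 to 108 CPM in the other 6. Of 10 markers of stromal, interstitial and immune cells, 6 to 8 were at or below 3 reads in every library of a group, and the highest was Kit, at 90.4 CPM in distal Cdx2-sgRNA WENR-plus organoids. In these bulk samples fewer cells of a type and less RNA per cell cannot be told apart.

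The sequences just before the start sites of Slc26a3, Cftr, Slc9a3 and Ano1 are shown as examples of genes that changed with Cdx2-sgRNA in proximal WENR-minus organoids. There RNA of the first 3 was lower and RNA of Ano1 was higher. RefSeq promoters (GRCm38.p6) matched 6 of the 10 genes, and each window holds up to 250 bases before the RefSeq start, ended where an annotated exon of the gene begins. The windows are chr12:31437969-31438216 (plus strand) for Slc26a3, chr6:18170437-18170686 (plus strand) for Cftr, chr13:74121163-74121412 (plus strand) for Slc9a3 and chr7:144738593-144738823 (minus strand) for Ano1, and all lie outside annotated exons of the gene. The Cftr and Slc9a3 windows lie upstream of the whole gene, and the Slc26a3 and Ano1 windows lie within an intron of longer annotated transcripts. Capitals mark matches, on either strand, to the core of the site of TCF/LEF factors and to a TATA box.
Slc26a3: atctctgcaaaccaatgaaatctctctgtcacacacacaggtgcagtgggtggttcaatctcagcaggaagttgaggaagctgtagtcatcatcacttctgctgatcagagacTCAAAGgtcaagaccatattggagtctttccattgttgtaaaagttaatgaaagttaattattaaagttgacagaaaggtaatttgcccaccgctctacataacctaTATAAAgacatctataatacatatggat
Cftr: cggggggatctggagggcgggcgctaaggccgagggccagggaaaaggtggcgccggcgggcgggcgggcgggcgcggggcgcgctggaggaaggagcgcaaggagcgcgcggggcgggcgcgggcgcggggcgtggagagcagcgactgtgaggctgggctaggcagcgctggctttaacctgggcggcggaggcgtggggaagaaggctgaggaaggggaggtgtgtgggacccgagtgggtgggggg
Slc9a3: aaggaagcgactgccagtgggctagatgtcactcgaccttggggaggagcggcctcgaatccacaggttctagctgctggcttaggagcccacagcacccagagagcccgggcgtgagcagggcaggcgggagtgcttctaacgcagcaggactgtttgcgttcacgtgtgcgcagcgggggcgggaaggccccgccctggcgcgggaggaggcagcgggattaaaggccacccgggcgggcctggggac
Ano1: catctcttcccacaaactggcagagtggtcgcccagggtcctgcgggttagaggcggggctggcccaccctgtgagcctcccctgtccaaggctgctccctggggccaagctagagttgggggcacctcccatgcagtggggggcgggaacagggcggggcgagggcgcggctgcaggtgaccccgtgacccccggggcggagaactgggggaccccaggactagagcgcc
TTTATNG, a core that CDX factors bind, was searched on both strands and is in none of these 4 windows. It is in 9.81% of the 32851 windows of 250 bases before RefSeq starts. The TCF/LEF core, searched as CTTTGA, is in 13.8% of them. The TATA box, searched as TATAAA, is in 12.4%. Both matches lie in the Slc26a3 window, the TCF/LEF match on the opposite strand between 132 and 137 bases before the start and the TATA box between 25 and 30 bases before it. The Slc26a3 window is 38.3% G and C, with 1 CG pair, and 9.05% of all windows are at or below that share. The Cftr window is 76.4% G and C with 30 CG pairs, the Ano1 window 71.0% with 12 and the Slc9a3 window 67.6% with 19. The 3 shown genes that were lower thus differ in base composition before their starts. Slc9a2 was also called lower there but had no matched RefSeq promoter. Slc4a4 was also called higher, and its window at chr5:89027716-89027965 (plus strand), of 48.8% G and C, is not shown. A match describes the letters of the window and is not evidence of binding. Nor is a missing match in so short a window evidence against binding, which may lie elsewhere. The authors mapped Cdx2 binding in proximal and distal organoids by ChIP-seq, and those data were not used here.

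Slc26a3 is the apical exchanger that takes up chloride for bicarbonate (ENSMUSG00000001225.12, chr12:31390871-31473917 of GRCm38). In distal Scramble-sgRNA organoids it had 95.8 and 58.9 CPM in WENR-plus and 1758 and 1238 CPM in WENR-minus. In proximal Scramble-sgRNA organoids it had 4.64 and 4.50 CPM in WENR-plus and 55.0 and 45.9 CPM in WENR-minus. Proximal organoids after 3 days in WENR-minus thus remained below both libraries of distal organoids that had stayed in WENR-plus. With Cdx2-sgRNA the distal organoids had 62.1 and 39.5 CPM in WENR-plus and 918 and 1439 CPM in WENR-minus, which overlap the Scramble-sgRNA libraries in both media. The proximal Cdx2-sgRNA organoids had 2.61 and 2.70 CPM in WENR-plus and 1.71 and 1.75 CPM in WENR-minus, the lowest 2 groups of the 8 for this gene. The log2 fold change of WENR-minus over WENR-plus was 3.46 ± 0.33 in proximal and 4.28 ± 0.33 in distal Scramble-sgRNA organoids, 4.54 ± 0.33 in distal Cdx2-sgRNA organoids and -0.62 ± 0.38 in proximal Cdx2-sgRNA organoids, where it did not pass the test (adjusted p = 0.315). Cdx2-sgRNA against Scramble-sgRNA in proximal WENR-minus organoids gave -4.86 ± 0.37 (adjusted p = 4.69e-06), and the same comparison in distal WENR-minus organoids gave -0.35 ± 0.29 (adjusted p = 0.487). Of the reads of the gene, 88.2% were assigned to the coding transcript Slc26a3-201 and 10.2% to Slc26a3-207, which is annotated for nonsense-mediated decay.

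Slc26a2, a sulfate transporter that also exchanges chloride (ENSMUSG00000034320.14, chr18:61192919-61211612, minus strand), rose with WENR-minus in every culture. In Scramble-sgRNA organoids it had 165 and 150.1 CPM in proximal WENR-plus, 612 and 592 CPM in proximal WENR-minus, 332 and 189 CPM in distal WENR-plus and 2529 and 2125 CPM in distal WENR-minus. In Cdx2-sgRNA organoids these were 105 and 118, 481 and 826, 316 and 167, and 2518 and 2745 CPM. No WENR-minus library overlapped the WENR-plus libraries of its culture. The log2 fold changes of WENR-minus over WENR-plus were 1.93 ± 0.34 and 2.55 ± 0.35 in proximal Scramble-sgRNA and Cdx2-sgRNA organoids and 3.16 ± 0.36 and 3.45 ± 0.37 in the distal ones. Unlike Slc26a3, it overlapped between guides in proximal WENR-minus organoids, where the log2 fold change of Cdx2-sgRNA was 0.12 ± 0.33 (95% interval -0.61 to 0.85). Per length, distal Scramble-sgRNA WENR-minus organoids had 341 and 311 TPM (abundance per length, scaled within each library) of Slc26a2 and 672 and 518 TPM of Slc26a3, so that Slc26a3 was the higher of these genes there on that scale. In proximal Scramble-sgRNA WENR-minus organoids the order was the other way, with 97.3 and 105 TPM of Slc26a2 and 25.2 and 23.0 TPM of Slc26a3.

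Slc26a6, an exchanger of chloride for bicarbonate and oxalate (ENSMUSG00000023259.16, chr9:108853283-108913049), had 0 to 14 reads per library. Proximal Scramble-sgRNA libraries had 8 and 6 reads in WENR-plus and 5 and 14 in WENR-minus, and proximal Cdx2-sgRNA libraries 10 and 4 in WENR-plus and 9 and 0 in WENR-minus. Distal libraries had 2 and 2, then 1 and 1 with Scramble-sgRNA, and 7 and 2, then 1 and 1 with Cdx2-sgRNA. No comparison called it, and changes in it were not detectable at this depth.

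**Figure D1:**
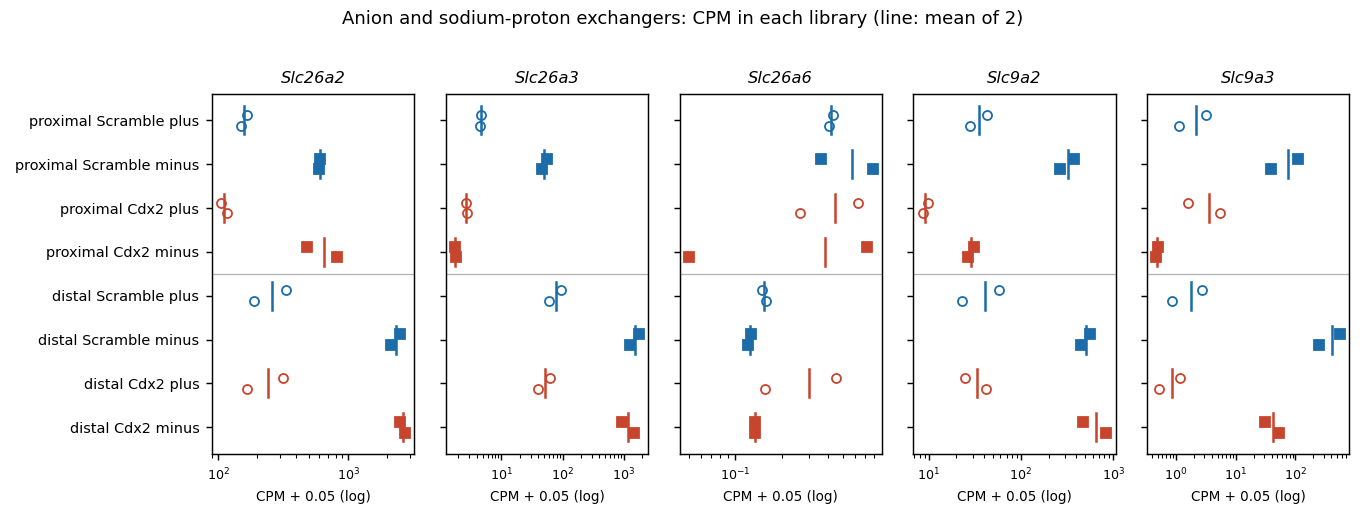
CPM of the 5 exchangers in each of the 16 libraries, on log axes with 0.05 added. Circles are WENR-plus, squares WENR-minus, blue Scramble-sgRNA, red Cdx2-sgRNA, and the vertical line is the mean of the 2 libraries of a group. Slc26a3 in proximal Cdx2-sgRNA WENR-minus organoids sits at 1.71 and 1.75 CPM, against 918 and 1439 CPM in the distal ones.

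Slc9a3, the apical sodium-proton exchanger that drives most sodium absorption in the gut (ENSMUSG00000036123.8, chr13:74121457-74169442), was low in WENR-plus. Over the 8 WENR-plus libraries it had 0.476 to 5.39 CPM, and neither the regions nor the guides differed there by the test. In WENR-minus it had 110.1 and 39.3 CPM in proximal and 559 and 248 CPM in distal Scramble-sgRNA organoids. With Cdx2-sgRNA it had 0.445 and 0.423 CPM in proximal and 30.8 and 52.4 CPM in distal WENR-minus organoids. Its level was thus below the Scramble-sgRNA libraries in both regions, and the proximal Cdx2-sgRNA libraries had 6 and 8 reads. The log2 fold change of Cdx2-sgRNA in WENR-minus was -7.41 ± 0.99 in proximal (adjusted p = 0.000253) and -3.28 ± 0.72 in distal organoids (adjusted p = 0.0187). WENR-minus over WENR-plus gave 5.11 ± 0.82 in proximal and 7.85 ± 0.91 in distal Scramble-sgRNA organoids and 5.68 ± 0.89 in distal Cdx2-sgRNA organoids, the largest medium effects of the 10 genes in each of those 3 cultures. In proximal Cdx2-sgRNA organoids it was 27 and 102 reads in WENR-plus against the 6 and 8 in WENR-minus, a log2 fold change of -3.0 ± 1.02 that missed the threshold (adjusted p = 0.0764). With a term for each culture, which pairs the media of one mouse, this value was -3.03 (adjusted p = 0.00308), DESeq2 gave -3.0 (adjusted p = 0.0119), and without WENR-plus replicate 1 it was -3.61 (0.0472). Without WENR-plus replicate 2 it was -1.84 (0.441), and without either WENR-minus library it was not called (0.224 and 0.247).

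Slc9a2, a related apical exchanger (ENSMUSG00000026062.12, chr1:40680574-40769273), had 42.5 and 28.2 CPM in proximal and 57.9 and 23.0 CPM in distal Scramble-sgRNA WENR-plus organoids. In WENR-minus these rose to 377 and 266 CPM and to 561 and 448 CPM. Distal Cdx2-sgRNA organoids overlapped them, at 24.7 and 41.7 CPM in WENR-plus and 466 and 847 CPM in WENR-minus. Proximal Cdx2-sgRNA organoids were lower in each medium, at 9.80 and 8.51 CPM in WENR-plus and 31.1 and 26.3 CPM in WENR-minus. The log2 fold change of Cdx2-sgRNA in proximal organoids was -1.95 ± 0.45 in WENR-plus and -3.49 ± 0.46 in WENR-minus, and in distal WENR-minus organoids it was 0.38 ± 0.42 (95% interval -0.54 to 1.30). Slc9a2 was called higher with WENR-minus in proximal Cdx2-sgRNA organoids, where Slc26a3 and Slc9a3 had none in that direction: its log2 fold changes of WENR-minus over WENR-plus were 3.18 ± 0.46 and 1.65 ± 0.45 in proximal and 3.64 ± 0.47 and 4.31 ± 0.48 in distal organoids, Scramble-sgRNA first. The proximal Cdx2-sgRNA call of Slc9a2 was lost without any 1 of the 4 libraries (adjusted p from 0.0710 to 0.175) and in a fit of those 4 alone (0.122).

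Slc12a2, the basolateral sodium-potassium-chloride cotransporter that loads chloride for secretion (ENSMUSG00000024597.11, chr18:57878678-57946821), was high in WENR-plus. Scramble-sgRNA organoids in WENR-plus had 808 and 1028 CPM in proximal and 1009 and 1038 CPM in distal colon, and distal Cdx2-sgRNA organoids had 856 and 975 CPM. In WENR-minus these cultures had 219 and 525, 245 and 310, and 242 and 162 CPM. The proximal Cdx2-sgRNA organoids stood apart, with 321 and 149.6 CPM in WENR-plus and 439 and 385 CPM in WENR-minus. The log2 fold change of WENR-minus over WENR-plus was -1.30 ± 0.41 in proximal Scramble-sgRNA, -1.88 ± 0.41 in distal Scramble-sgRNA and -2.18 ± 0.42 in distal Cdx2-sgRNA organoids, and 0.81 ± 0.40 in proximal Cdx2-sgRNA organoids (adjusted p = 0.215). The last value was 0.36 without WENR-plus replicate 2 and 1.47 without WENR-plus replicate 1 and was called in neither fit (0.701 and 0.0599). The first was -0.79 without WENR-minus replicate 1 and -2.00 without WENR-minus replicate 2. Cdx2-sgRNA against Scramble-sgRNA gave -1.96 ± 0.41 in proximal WENR-plus organoids (adjusted p = 0.00603), and in proximal WENR-minus organoids the guides overlapped (0.15 ± 0.40).

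Slc4a4, the basolateral sodium-bicarbonate cotransporter (ENSMUSG00000060961.14, chr5:88886818-89239653), was highest in the proximal Cdx2-sgRNA organoids. They had 425 and 522 CPM in WENR-plus and 412 and 688 CPM in WENR-minus, above all 12 libraries of the other groups. Proximal Scramble-sgRNA organoids had 265 and 235 CPM in WENR-plus and 196 and 159 CPM in WENR-minus. In distal organoids it had 166 and 195 CPM in WENR-plus and 35.3 and 69.7 CPM in WENR-minus with Scramble-sgRNA, and 126 and 277, then 94.5 and 66.0 CPM with Cdx2-sgRNA. The level thus fell with WENR-minus in distal cultures, with log2 fold changes of -1.78 ± 0.41 for Scramble-sgRNA and -1.33 ± 0.40 for Cdx2-sgRNA, the latter -0.62 and not called (adjusted p = 0.270) without Cdx2-sgRNA WENR-plus replicate 2. In proximal Scramble-sgRNA organoids the log2 fold change was -0.50 ± 0.39, which did not pass the test. Cdx2-sgRNA against Scramble-sgRNA in proximal organoids gave 1.63 ± 0.40 in WENR-minus (adjusted p = 0.0101) and 0.92 ± 0.39 in WENR-plus (adjusted p = 0.111).

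Cftr, the apical chloride and bicarbonate channel opened by cyclic AMP signals (ENSMUSG00000041301.15, chr6:18170687-18322768), showed the largest drop with Cdx2-sgRNA of the 10 genes in proximal organoids of each medium, though in WENR-minus that of Slc9a3 was within the errors. Proximal Scramble-sgRNA organoids had 159 and 146 CPM in WENR-plus and 88.9 and 128 CPM in WENR-minus. Proximal Cdx2-sgRNA organoids had 0.696 and 0.740 CPM in WENR-plus and 0.371 and 0.635 CPM in WENR-minus, which is 5 to 14 reads per library against 1434 to 3321. No library of the distal groups was that low: with Scramble-sgRNA they had 150.3 and 52.5 CPM in WENR-plus and 48.9 and 51.3 CPM in WENR-minus, and with Cdx2-sgRNA 32.2 and 66.1, then 4.32 and 13.1 CPM. The log2 fold change of Cdx2-sgRNA was -7.71 ± 0.73 in proximal WENR-plus (adjusted p = 4.29e-05), -7.69 ± 0.76 in proximal WENR-minus (adjusted p = 3.34e-05), -1.05 ± 0.51 in distal WENR-plus (adjusted p = 0.821) and -2.53 ± 0.56 in distal WENR-minus organoids (adjusted p = 0.0195). WENR-minus over WENR-plus gave -0.49 ± 0.51 in proximal and -1.02 ± 0.51 in distal Scramble-sgRNA organoids, neither past the test, and -2.50 ± 0.56 in distal Cdx2-sgRNA organoids (adjusted p = 0.00322). The distal Scramble-sgRNA WENR-plus libraries, at 150.3 and 52.5 CPM, enter both the medium and the guide comparison. Without replicate 1 of these the distal medium effect was -0.02 (adjusted p = 1), and without replicate 2 it was -1.49 and called (0.0475). The effect of the guide in distal WENR-plus ran from -1.61, without Cdx2-sgRNA replicate 2, to -0.10, without Scramble-sgRNA replicate 1, and was called in none of these fits (0.568 to 1). Gm15592 has an exon on the opposite strand over an exon of Cftr, and none of the other 9 genes shares exonic bases with another annotated gene.

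Ano1, the calcium-activated chloride channel (ENSMUSG00000031075.18, chr7:144588549-144751974, minus strand), went the other way from Cftr. Proximal Scramble-sgRNA organoids had 11.4 and 16.2 CPM in WENR-plus and 41.3 and 40.1 CPM in WENR-minus, and proximal Cdx2-sgRNA organoids had 134 and 52.3 CPM, then 377 and 199 CPM. Distal Scramble-sgRNA organoids had 31.8 and 71.0 CPM in WENR-plus and 86.3 and 63.2 CPM in WENR-minus, and distal Cdx2-sgRNA organoids had 62.1 and 80.4 CPM, then 321 and 211 CPM. With Cdx2-sgRNA in WENR-minus the 4 libraries of both regions lay above the 4 Scramble-sgRNA libraries. The log2 fold change of Cdx2-sgRNA was 2.76 ± 0.51 and 2.82 ± 0.51 in proximal WENR-plus and WENR-minus organoids (adjusted p = 0.00301 and 0.00171) and 1.83 ± 0.49 in distal WENR-minus organoids (adjusted p = 0.0387). Interstitial cells also carry Ano1, and Kit is listed as their marker, but which cells held the RNA of Kit was not tested. Kit had means of 28.3 and 0.710 CPM in proximal WENR-minus and 64.0 and 0.692 CPM in proximal WENR-plus organoids, Scramble-sgRNA first. In distal organoids these were 10.9 and 16.8 CPM in WENR-minus and 52.8 and 90.4 CPM in WENR-plus. No other marker of the stromal, interstitial and immune list had over 26 reads in any library. The part of interstitial cells in the Ano1 levels was not tested.

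Best2, a calcium-activated channel for bicarbonate that in the colon belongs to goblet cells (ENSMUSG00000052819.6, chr8:85007202-85014531, minus strand), had 0 to 2 reads in each of the 8 proximal libraries. In distal libraries it had 13 and 2 reads in WENR-plus and 10 and 25 in WENR-minus with Scramble-sgRNA, and 41 and 1, then 31 and 8 reads with Cdx2-sgRNA. Distal Cdx2-sgRNA WENR-minus organoids were at least 8.63-fold higher than the proximal ones, taking 3 reads per library as the level of the latter, and this was the comparison that called it (adjusted p = 0.0280). Without distal replicate 1 the bound was 3.51-fold and without distal replicate 2 it was 13.8-fold. For the same comparison with Scramble-sgRNA the bound was at least 7.48-fold, or 4.5-fold without distal replicate 2, and it was not called (adjusted p = 0.0927). With the replicate block it was called (0.0407), as it was by DESeq2 (0.0218) and in a fit of these 4 libraries alone (0.0413). Those 3 fits were not repeated with libraries left out; in the fit that did not call it, leaving out 1 library gave 0.154 to 0.307.

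**Figure D2:**
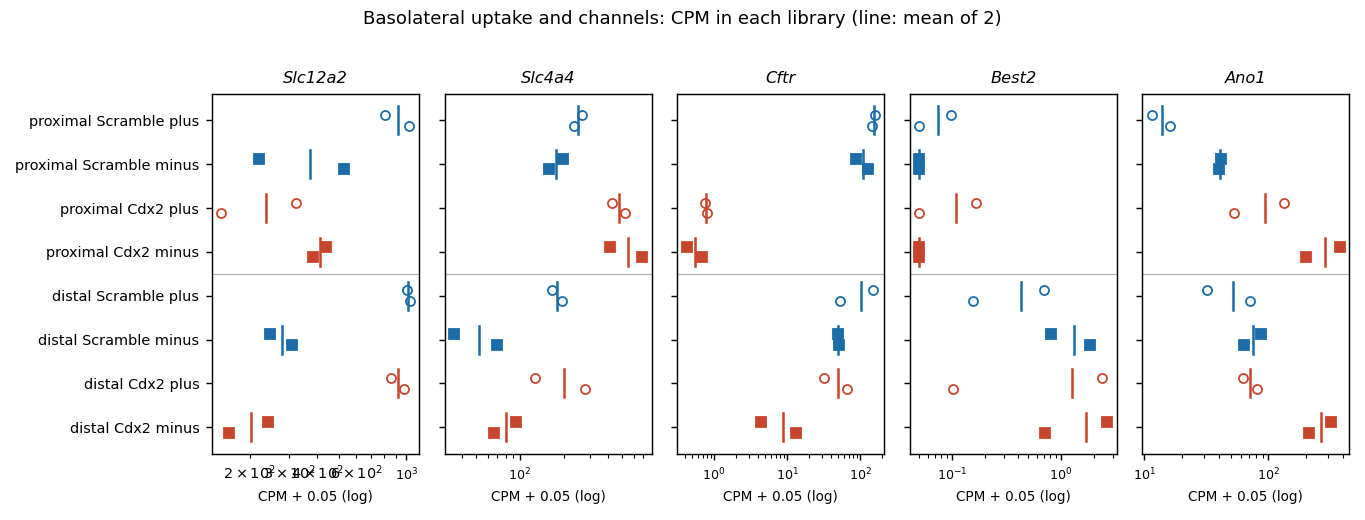
CPM of the 2 basolateral carriers and 3 channels in each of the 16 libraries, on log axes with 0.05 added and with the same symbols as in the plot of the exchangers. Cftr in the 4 proximal Cdx2-sgRNA libraries lies between 0.371 and 0.740 CPM, while Slc4a4 and Ano1 have their highest group means among these cultures.

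The first question of the design is how the genes respond when the Wnt, R-spondin, Noggin and EGF factors are withdrawn. In proximal Scramble-sgRNA organoids WENR-minus raised 5 of the 10 genes (Slc26a2, Slc26a3, Slc9a2, Slc9a3 and Ano1) and lowered 1 (Slc12a2), where the test called 8.73% of all genes higher and 8.24% lower. In distal Scramble-sgRNA organoids 4 rose (the same exchangers without Ano1) and 2 fell (Slc12a2 and Slc4a4), where it called 12.2% higher and 14.2% lower. Distal Cdx2-sgRNA organoids had 5 higher and 3 lower, the latter now with Cftr, against 14.9% and 18.1% of all genes. Proximal Cdx2-sgRNA organoids had 3 higher (Slc26a2, Slc9a2 and Ano1) and none lower, against 3.42% and 2.98% of all genes. A call needed both a Benjamini-Hochberg adjusted p below 0.05 in edgeR's quasi-likelihood test and a log2 fold change beyond 1 in either direction. The median log2 fold change of the 10 genes was 1.03, 1.14 and 1.18 in proximal Scramble-sgRNA, distal Scramble-sgRNA and distal Cdx2-sgRNA organoids, beside -0.06, -0.11 and -0.10 over all tested genes. In proximal Cdx2-sgRNA organoids it was -0.05, or 0.11 with groups at or under 3 reads set to their bound, beside -0.03.

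Cell type markers moved with the media. The summed level of 10 colonocyte markers was 254 to 314 CPM in proximal Scramble-sgRNA WENR-plus and 7070 to 10500 CPM in WENR-minus libraries, and 251 to 407 and 6740 to 10300 CPM in the distal ones. In proximal Cdx2-sgRNA organoids it was 173 to 304 CPM in WENR-plus and 561 to 1610 CPM in WENR-minus, against 461 to 655 and 14700 to 15900 CPM in the distal ones. The proximal Cdx2-sgRNA rise was that of Krt20, which went from 158 to 1030 CPM by group means (log2 fold change 2.70 ± 0.56, adjusted p = 0.0113). It was the 1 of the 10 markers called there, where 3.42% of all genes were called higher, and the median of the list was -0.02. Car1 went from 19.7 to 15.7 CPM and Sult1a1 from 39.2 to 15.3 CPM. Of those 10 markers, 7 were called higher in proximal and 8 in distal Scramble-sgRNA organoids with WENR-minus, where 8.73% and 12.2% of all genes were. Of 10 crypt base and stem cell markers, 8 and 9 were called lower, where 8.24% and 14.2% of all genes were; Slc12a2 is one of these markers. With Cdx2-sgRNA 6 of these were lower in proximal and 10 in distal organoids, against 2.98% and 18.1% of all genes. Of 8 proliferation genes, 7 were lower with WENR-minus in proximal Scramble-sgRNA, distal Scramble-sgRNA and distal Cdx2-sgRNA organoids, and in proximal Cdx2-sgRNA organoids none of the 8 was called. Of 10 goblet cell markers 4 were higher in each of those 3 cultures and 0 in proximal Cdx2-sgRNA organoids. Of 9 tested enteroendocrine markers 6, 5 and 4 were higher and 0, 1 and 1 lower in the 3 cultures in that order, and none was called in proximal Cdx2-sgRNA organoids. Over all genes the test called 8.73%, 12.2% and 14.9% higher in these 3 cultures and 8.24%, 14.2% and 18.1% lower. It called 3.42% higher and 2.98% lower in proximal Cdx2-sgRNA organoids. There 0 calls in a list of this size are near the share of all genes. The sum of 10 goblet cell markers was 38.6 to 76.2 CPM over the 4 proximal Cdx2-sgRNA libraries and 904 to 16000 CPM over the other 12. With Cdx2-sgRNA in proximal WENR-minus organoids, where the test called 9.04% of all genes higher and 12.1% lower, 7 of the 10 colonocyte markers were called lower and 1 higher. There 9 of the 10 goblet cell, 8 of 9 tested enteroendocrine and 5 of 10 colon epithelium markers were lower and none of these higher. Of 10 crypt base markers 2 were higher and 1 lower, of 8 proliferation genes 2 were higher, of 2 tested tuft cell markers 1 was higher and of 3 tested stromal, interstitial and immune markers 1 was lower. With Cdx2-sgRNA in proximal WENR-plus organoids 7 of the 10 goblet cell, 6 of 9 enteroendocrine and 6 of 10 colonocyte markers were lower and 2 of the colonocyte markers higher, against 8.94% and 6.93% of all genes. In that comparison 2 of 2 tested tuft cell markers were higher, and 2 of 8 proliferation genes and 1 of 3 tested stromal, interstitial and immune markers were lower. Of 10 crypt base markers 2 were higher and 2 lower, and of 10 colon epithelium markers 1 was higher and 3 were lower. The part of these cell types in the levels of the transporters was not tested.

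Some medium calls rested on single libraries. The Ano1 call in proximal Scramble-sgRNA organoids was lost without any 1 of the 4 libraries (adjusted p from 0.0703 to 0.167) and with length-scaled counts (0.0676), and that of Slc12a2 without WENR-plus replicate 1 (0.0644), WENR-plus replicate 2 (0.148) or WENR-minus replicate 1 (0.215). The Slc9a2 call in proximal Cdx2-sgRNA organoids was also lost without any 1 library, as given above, and that of Ano1 without WENR-minus replicate 1 (0.226) or WENR-plus replicate 2 (0.256), its log2 fold change running from 1.11, without WENR-plus replicate 2, to 2.47, without WENR-plus replicate 1. Slc4a4 lost its call in distal Scramble-sgRNA organoids without WENR-minus replicate 1 (0.0507) and in distal Cdx2-sgRNA organoids without WENR-plus replicate 2 (0.270) or WENR-minus replicate 2 (0.147), and Ano1 lost its own there without WENR-minus replicate 1 (0.0503). All calls of Slc26a2, Slc26a3 and Slc9a3 between media held without each library in turn. In a fit of the 4 libraries alone the 3 calls in proximal Cdx2-sgRNA organoids (0.122 for Slc26a2 and Slc9a2, 0.201 for Ano1) and that of Slc12a2 in proximal Scramble-sgRNA organoids (0.0688) were lost. For the medium in proximal Cdx2-sgRNA organoids that edgeR fit called 0 of 13518 genes, with 2958 at an unadjusted p under 0.05, where the fit of the 16 libraries called 523 higher and 456 lower and DESeq2 on the 16 called 610 and 558.

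**Figure D3:**
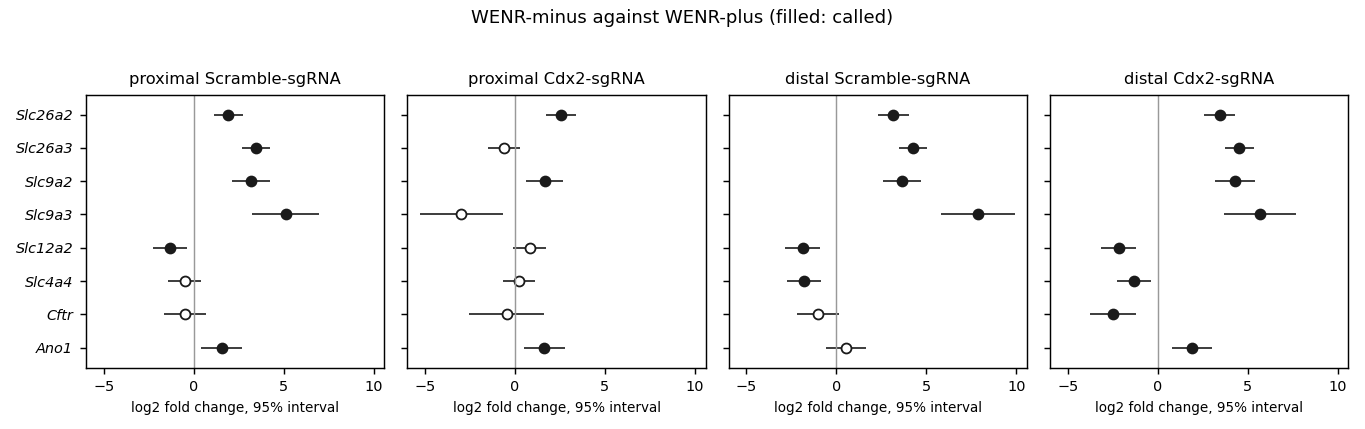
Log2 fold changes of WENR-minus over WENR-plus for the 8 genes with enough reads, 1 panel per culture. Points are edgeR estimates, lines their 95% intervals and filled points called genes. Slc9a3 is at 5.11, 7.85 and 5.68 in 3 panels and at -3.0 in proximal Cdx2-sgRNA organoids.

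The second question is what Cdx2-sgRNA changes in each region and medium. In proximal WENR-minus organoids 2 of the 10 genes rose (Slc4a4 and Ano1) and 4 fell (Slc26a3, Slc9a2, Slc9a3 and Cftr), where the test called 9.04% of all genes higher and 12.1% lower. In proximal WENR-plus organoids 1 rose (Ano1) and 3 fell (Slc9a2, Slc12a2 and Cftr), against 6.93% and 8.94% of all genes. In distal WENR-minus organoids 1 rose (Ano1) and 2 fell (Slc9a3 and Cftr), against 2.24% and 3% of all genes. In distal WENR-plus organoids edgeR called 0 of the 10, where the test called 0.137% of genes higher and 0.124% lower. None of the 10 had an unadjusted p under 0.05 there, and DESeq2 also called 0. Cftr fell and Ano1 rose in the same 3 comparisons. The WENR-plus and WENR-minus comparisons of a region use different libraries of the same cultures, so that they share mice and clones.

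Leaving out libraries weighed most on the distal calls. In distal WENR-minus organoids Slc9a3 (adjusted p from 0.0551 to 0.121) and Ano1 (0.0851 to 0.238) lost their calls without any 1 of the 4 libraries. Cftr lost its call there without Scramble-sgRNA replicate 1 (0.0554), Scramble-sgRNA replicate 2 (0.0958) or Cdx2-sgRNA replicate 1 (0.108). In proximal WENR-minus organoids Slc4a4 lost its call without Scramble-sgRNA replicate 2 (0.0721) or Cdx2-sgRNA replicate 2 (0.0845), and in proximal WENR-plus organoids Slc9a2 without Scramble-sgRNA replicate 1 (0.0703) or Cdx2-sgRNA replicate 2 (0.0673). The other proximal calls, those of Slc26a3, Slc9a3, Slc12a2, Cftr and Ano1 and of Slc9a2 in WENR-minus, held without each library in turn.

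The test of the difference between regions bears on whether Cdx2-sgRNA acts alike in both. The effect in proximal minus that in distal WENR-minus organoids was called for 4 of the 10 genes, against 14.3% of all genes. It was -4.52 ± 0.46 for Slc26a3 (adjusted p = 9.69e-05), -3.87 ± 0.61 for Slc9a2 (0.00195), -4.13 ± 1.19 for Slc9a3 (0.0356) and -5.16 ± 0.91 for Cftr (0.00361), all on the log2 scale and all negative, which means a lower proximal than distal effect. Of these 4 genes, Slc9a3 and Cftr also fell in the distal organoids by the test. For Slc26a2 the difference was -0.06 ± 0.47 (95% interval -1.09 to 0.97). In WENR-plus only Cftr was called, at -6.67 ± 0.87 (adjusted p = 0.00119), against 4.98% of all genes. There Ano1 (2.29 ± 0.68, adjusted p = 0.0784), Slc12a2 (-1.80 ± 0.57, 0.0936) and Slc9a2 (-1.67 ± 0.61, 0.144) missed the threshold. DESeq2 called Ano1 (2.33, 0.00868) and Slc12a2 (-1.77, 0.0192) as well. With 1 of the 8 libraries left out, Ano1 ran from 1.45 to 2.81 (adjusted p = 0.0373 to 0.275) and was called in 2 of the 8 fits, those without proximal Cdx2-sgRNA replicate 2 or distal Scramble-sgRNA replicate 1. Slc12a2 ran from -2.46 to -1.35 (0.0328 to 0.247) and was called in 1, without proximal Cdx2-sgRNA replicate 1. Slc9a2 ran from -2.45 to -1.16 (0.0399 to 0.365) and was called in 1, without distal Scramble-sgRNA replicate 1. The Slc9a3 difference was lost without 5 of the 8 libraries in turn, at adjusted p from 0.0889 to 0.129.

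**Figure D4:**
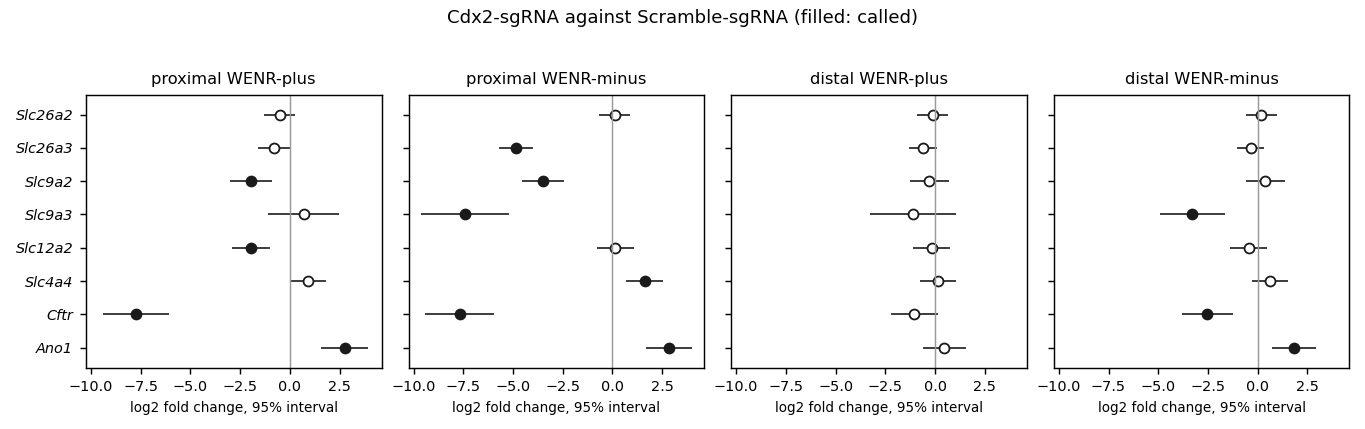
Log2 fold changes of Cdx2-sgRNA over Scramble-sgRNA for the same 8 genes, 1 panel per region and medium. Points are edgeR estimates, lines their 95% intervals and filled points called genes. Cftr is at -7.71 and -7.69 in the proximal panels and at -1.05 and -2.53 in the distal ones.

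A further pair of contrasts asks whether the guide changed the response to the medium. In proximal organoids the medium effect with Cdx2-sgRNA minus that with Scramble-sgRNA was called for 2 of the 10 genes, Slc26a3 (-4.08 ± 0.49, adjusted p = 0.00494) and Slc9a3 (-8.11 ± 1.26, 0.0138), against 3.60% of all genes. Slc12a2 (2.11 ± 0.57, adjusted p = 0.0607; DESeq2 gave 2.11 and 0.00294) and Slc9a2 (-1.54 ± 0.61, 0.175) were not called. With a term for each culture, which pairs the media within a mouse, 4 were called: the block brought in Slc12a2 (2.33, adjusted p = 0.00589) and Slc9a2 (-1.55, 0.00867). With 1 library left out, Slc12a2 ran from 1.62 to 2.83 (0.0157 to 0.164) and was called in 2 of 8 fits, without Cdx2-sgRNA WENR-plus replicate 1 or Scramble-sgRNA WENR-minus replicate 2, and Slc9a2 in none (0.148 to 0.398). The Slc9a3 call was lost without Scramble-sgRNA WENR-plus replicate 2 (0.0640), without Cdx2-sgRNA WENR-minus replicate 2 (0.0583), and in a fit of these 8 libraries alone (0.0533). In distal organoids edgeR called 0 of the 10 genes and 0% of all genes, none of the 10 had an unadjusted p under 0.05, and DESeq2 called 0 of the 10. The medium effect in proximal minus that in distal Scramble-sgRNA organoids was called for 0 of the 10 by edgeR and by DESeq2, against 0.0719% of all genes. At an unadjusted p under 0.05 there were 3: Slc26a2 (-1.23 ± 0.47), Slc9a3 (-2.74 ± 1.07) and Slc4a4 (1.28 ± 0.56). The block by culture called 1, Slc9a3 (-2.76, adjusted p = 0.0304). Without the block, where it was not called, the Slc9a3 value ran from -3.84 to -1.74 with 1 library left out (0.265 to 0.91); the blocked fit was not repeated with libraries left out.

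The third question is how the regions differ. In Scramble-sgRNA WENR-plus organoids Slc26a3 was the 1 gene of the 10 that was called, at -4.08 ± 0.34 for proximal against distal (adjusted p = 9.74e-05), against 0.68% of all genes that were higher by the test in proximal organoids and 1.07% that were lower. Ano1 was at -1.90 ± 0.50 (adjusted p = 0.0817; DESeq2 gave -1.91 and 0.00259), and it ran from -2.38 to -1.18 when 1 library was left out (0.0678 to 0.45), lowest in size without distal replicate 2. In WENR-minus, Slc4a4 was higher in proximal Scramble-sgRNA organoids (1.76 ± 0.40, adjusted p = 0.0202) and Slc26a2 (-1.95 ± 0.34, 0.00600), Slc26a3 (-4.89 ± 0.34, 2.43e-05) and Slc9a3 (-2.44 ± 0.69, 0.0471) were lower, against 2.88% and 3.20% of all genes. Cftr was at 1.12 ± 0.52 there, with no overlap between the groups (adjusted p = 0.197, 0.0336 in a fit of these 4 libraries alone, or 0.224 to 0.549 with 1 library left out). Slc26a3 was thus the exchanger with a regional difference in both media, and its difference held without each library in turn. In WENR-minus the calls of Slc26a2 (without proximal replicate 2, 0.0645), Slc9a3 (without proximal replicate 2, 0.273, distal replicate 1, 0.248, or distal replicate 2, 0.0708) and Slc4a4 (without proximal replicate 1, 0.0825, proximal replicate 2, 0.0701, or distal replicate 1, 0.137) did not. That of Slc9a3 was also lost with length-scaled counts (0.0677) and in a fit of the 4 libraries alone (0.0658). Of the cell type markers, 3 of 10 colonocyte and 2 of 9 tested enteroendocrine markers were lower in proximal Scramble-sgRNA WENR-minus organoids, against 3.20% of all genes. In WENR-plus 1 of the 9 enteroendocrine markers was lower, against 1.07%. No other marker was called in either medium, and the part of cell types in these differences was not tested.

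Between Cdx2-sgRNA cultures the regions differed in more of the genes. In WENR-minus 1 was higher in proximal organoids (Slc4a4, 2.78 ± 0.42) and 6 were lower: Slc26a3 (-9.41 ± 0.43), Slc9a3 (-6.56 ± 0.98), Slc9a2 (-4.52 ± 0.49), Cftr (-4.04 ± 0.74), Slc26a2 (-2.01 ± 0.34) and Best2. Over all genes the test called 18.1% higher and 16.5% lower. Slc12a2 was at 1.03 ± 0.40 (adjusted p = 0.0539; DESeq2 gave 1.01 and 0.0245, and leaving out 1 library 0.74 to 1.34 and 0.0694 to 0.267). In WENR-plus 1 was higher in proximal organoids (Slc4a4, 1.23 ± 0.40) and 5 were lower: Cftr (-6.08 ± 0.70), Slc26a3 (-4.26 ± 0.35), Slc12a2 (-1.96 ± 0.41), Slc9a2 (-1.86 ± 0.45) and Slc26a2 (-1.12 ± 0.34), against 7.40% and 9.57% of all genes. The median of all tested genes was itself 0.13 in the WENR-minus comparison, the largest shift of the 12 comparisons of groups. In WENR-plus the calls of Slc26a2 (without proximal replicate 1, 0.110, proximal replicate 2, 0.0941, or distal replicate 1, 0.315, at -0.54), Slc4a4 (without proximal replicate 1, 0.0589, proximal replicate 2, 0.151, or distal replicate 1, 0.227, at 0.82) and Slc9a2 (without proximal replicate 2, 0.0725, or distal replicate 2, 0.0746) were lost, while without distal replicate 2 the Slc4a4 value was 1.91 and called (0.0170). In a fit of the 4 libraries alone those of Slc26a2 (0.0960) and Slc4a4 (0.0860) were lost too. That of Best2 in WENR-minus was lost without proximal replicate 1 (0.0844), proximal replicate 2 (0.112) or distal replicate 1 (0.114). Cell type markers differed between these cultures as well. In WENR-minus 10 of 10 goblet cell, 7 of 10 colonocyte and 8 of 9 tested enteroendocrine markers were lower in proximal Cdx2-sgRNA organoids, and 7 of 8 proliferation genes and 4 of 10 crypt base markers were higher. In WENR-plus 10 of 10 goblet cell, 5 of 10 colonocyte and 7 of 9 enteroendocrine markers were lower, 2 colonocyte markers were higher and 2 of 8 proliferation genes lower. Of 10 colon epithelium markers 4 were lower in WENR-minus, and 2 were lower and 1 higher in WENR-plus. Of 2 tested tuft cell markers 1 was higher in WENR-minus and 2 in WENR-plus. Of 3 tested stromal, interstitial and immune markers 2 were lower in each medium. Of 10 crypt base markers 2 were higher and 2 lower in WENR-plus. The part of these cell types in the regional differences between Cdx2-sgRNA cultures was not tested. These comparisons share their libraries with those of the guides and of the media above.

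**Figure D5:**
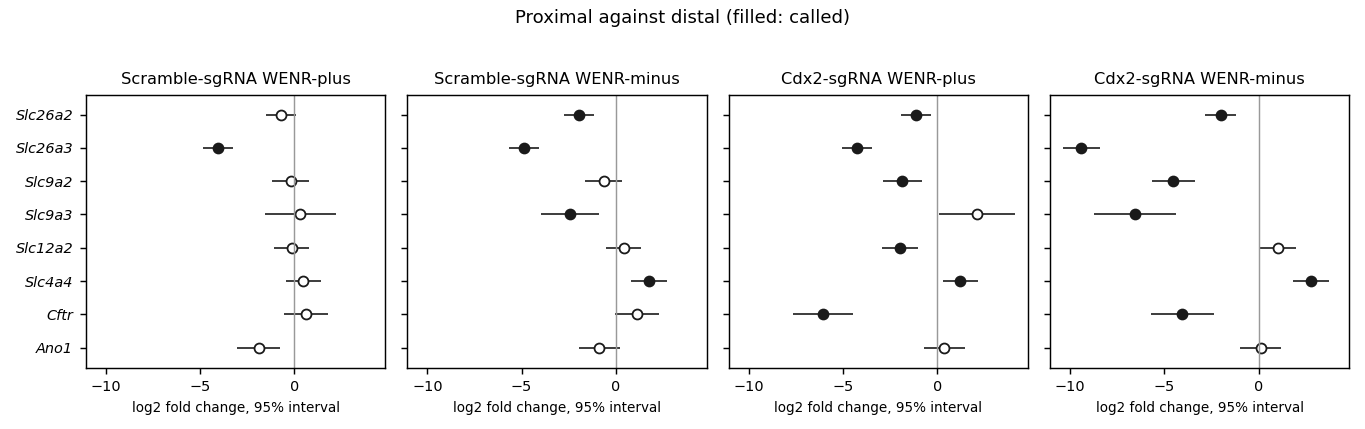
Log2 fold changes of proximal over distal organoids for the same 8 genes, 1 panel per guide and medium. Points are edgeR estimates, lines their 95% intervals and filled points called genes. Slc26a3 is called in all 4 panels, from -4.08 to -9.41, and Slc4a4 is on the positive side in each panel.

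Other genes of chloride and bicarbonate transport were read from lists of the Slc26, Slc4, Slc9 and Slc12 families, chloride channels and their modifiers, and regulators of anion secretion, 83 genes of which 62 were tested. With WENR-minus 16 of the 62 rose and 3 fell in proximal Scramble-sgRNA organoids, where 8.73% and 8.24% of all genes did. In distal ones 14 rose and 10 fell, where 12.2% and 14.2% of all genes did. With Cdx2-sgRNA 4 rose and 20 fell in proximal WENR-minus organoids, against 9.04% and 12.1% of all genes, and 3 rose and 3 fell in distal ones, against 2.24% and 3%. The median log2 fold change was 0.52, 0.24, -0.37 and 0.14 in these 4 comparisons, or 0.46, 0.24, -0.33 and 0.12 with groups at or under 3 reads set to their bound, beside -0.06, -0.11, -0.000325 and 0 over all genes. The channels and modifiers held 10 of the 20 that fell in proximal organoids, of 27 tested. The named ones belong to the Clca family of secreted or membrane-bound modifiers of chloride conductance: Clca4b was at 128 ± 29.2 CPM (mean ± SD) with Scramble-sgRNA and at 2 and 3 reads with Cdx2-sgRNA (at least 670-fold lower), Clca4a at 15.3 ± 8.84 CPM and 0 reads (at least 80.3-fold lower), and Clca3b at 326 ± 46.2 and 1.31 ± 0.66 CPM (log2 fold change -8.00 ± 0.61). With WENR-minus, Clca4a, at 0 CPM in WENR-plus, was at least 95.5-fold higher in proximal and at least 599-fold higher in distal Scramble-sgRNA organoids. Without replicate 1 of the proximal Scramble-sgRNA WENR-minus libraries the bounds for Clca4a were 47.6-fold for the guide and 56.5-fold for the medium. Clca1, a goblet cell product, rose by a log2 fold change of 6.39 ± 1.23 and 5.42 ± 1.17, Chp2, a cofactor of sodium-proton exchangers, by 5.42 ± 1.63 in proximal organoids and Clca4b by 4.55 ± 0.57 in distal ones.

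Profiles over the 16 libraries were compared by the Pearson correlation of log2(CPM + 0.5), as a description only, since the libraries share their groups. Of 9543 other genes, Clca3b (r = 0.974), Nr5a2 (0.967) and Cldn15 (0.958) were most like Cftr. The genes most like Slc26a3 were Slc41a2 (0.989), Abcg2 (0.976) and Cyp2d12 (0.976), and those most like Slc9a3 were Slc30a1 (0.968), Vdac3 (0.965) and Prss30 (0.953). Slc26a2 was followed most closely by Baiap2l1 (0.983), Slc9a2 by Atp6v0a2 (0.990), Slc12a2 by Nup188 (0.966), Slc4a4 by Plekhs1 (0.961), Ano1 by Gramd4 (0.940) and Best2 by Mptx1 (0.933). Among the members, Slc26a3 and Slc4a4 ran opposite to each other (r = -0.94), Slc26a2 and Slc9a2 ran together (0.88), and Cftr was close to unrelated to Slc26a2 (-0.01).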

How the data were processed

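RNA of 16 organoid libraries was prepared by a SMARTer kit for stranded total RNA and read on a HiSeq. The authors ran Salmon 1.1.0 on GENCODE vM23 transcripts, let the program detect the library strand, and used tximport and DESeq2, for which the sources give different versions. The deposited tables hold, for each library, the estimated counts per transcript that the authors' Salmon run gave, with no scaling between libraries. They also hold TPM and lengths, which the authors took from the same run.

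Of 140748 transcripts, 139864 were matched by identifier to GENCODE vM21 (GRCm38), an earlier release than the authors', and summed to 54123 genes; 884 were left out, with 0.257 to 0.509% of a library's counts. Totals were 12465194 to 18922143 per library. Counts were rounded and analysed in R 4.3.3 with edgeR 4.0.16: filterByExpr (15289 genes), TMM, glmQLFit with 1 coefficient per group over all 16 libraries (8 residual degrees of freedom) and glmQLFTest. P-values were adjusted by Benjamini-Hochberg within each of 17 contrasts. Calls required an adjusted p below 0.05 and a log2 fold change beyond 1 in either direction. The SE was taken from the estimate and its F statistic (estimate over root F). Where all libraries of a group held at most 3 reads, a bound at 3 reads per library replaces the fold. In simulated counts of 15289 genes for Cdx2-sgRNA against Scramble-sgRNA in proximal WENR-minus organoids, 93.0% of 100 genes changed by 3 on the log2 scale and 62.0% of 100 changed by 1.5 were called. These counts were drawn at the trended dispersion, with no spread of single genes around it and no link between the media of a culture. The shares can therefore overstate what was detectable in the data.

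Each culture was split between both media, so that its same-numbered libraries were taken to come from 1 mouse, which the labels do not state. Their deviations from the group means correlated at 0.34 to 0.63 in the 4 cultures, so that a block per culture was also fitted. Alternatives were RLE size factors, counts without mitochondrial genes, no filter or a strict one (10 reads in every library), DESeq2 1.42.0, length-scaled counts, only the libraries compared, replicate blocks, no fold threshold, TPM in place of CPM, and leaving out each library. All 10 transport genes are named. Of the wider lists, 3 comparisons name the 3 called genes that changed most, given a mean of at least 5 CPM in either group, and for likeness up to 3 genes with the highest correlation among genes of at least 5 CPM that are not Gm or Rik models. The genes and lists were chosen with earlier results of these data known. One gene of the study is left out of this account.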

Additional observations from a re-analysis of the deposited data

Results flagged for a closer look

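These results stand out because the same change of guide or medium had a different size in another culture, by a test of the difference itself. For Cdx2-sgRNA in WENR-minus, the proximal effect less the distal effect was -4.52 on the log2 scale for Slc26a3, -3.87 for Slc9a2, -4.13 for Slc9a3 and -5.16 for Cftr. In WENR-plus the same difference for Cftr was -6.67. In proximal organoids, the response to WENR-minus under Cdx2-sgRNA less that under Scramble-sgRNA was -4.08 for Slc26a3 and -8.11 for Slc9a3. In the proximal Cdx2-sgRNA WENR-minus libraries these genes had 6 and 8 reads (Slc9a3), 5 and 12 (Cftr), 23 and 33 (Slc26a3) and 419 and 497 (Slc9a2). The differences for Slc9a3 and Cftr thus rest on few reads in one group.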

How the results depend on the processing

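The counts of called transport genes below are given as the alternative's value against the reported one. Scaling by RLE size factors, leaving out mitochondrial genes, length-scaled counts, dropping the fold threshold and the replicate block moved no count by over 1.5 times. With the replicate block, which gives each replicate number 1 term, 4 genes were called for the guide effect between regions in WENR-minus, as without it, and of the 170 fold changes of the 10 genes it changed 1 call, Best2 between regions in Scramble-sgRNA WENR-minus, which it brought in (adjusted p = 0.0407). The replicate block per culture changed 4 of 70, all to called, and moved the count of genes whose medium response differed between guides in proximal organoids from 2 to 4, and that between regions in Scramble-sgRNA organoids from 0 to 1. Outside cultures the numbers were not taken to pair the groups: over 28 pairs of groups the correlation ran from -0.08 to 0.63, with 13 over 0.1.

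With no filter on low counts, Cdx2-sgRNA in distal WENR-plus called 2 (0), region in Scramble-sgRNA WENR-plus 2 (1), the guide effect between regions in WENR-plus 5 (1), the medium effect between guides 4 (2) in proximal and 3 (0) in distal organoids, and the medium effect between regions 4 (0). At least 10 counts in every library gave 1 (3) for Cdx2-sgRNA in distal WENR-minus, and 2 (4) and 0 (1) for the guide effect between regions in WENR-minus and WENR-plus; there some of the 10 genes were no longer tested. DESeq2 gave 2 (1) for region in Scramble-sgRNA WENR-plus and 3 (1) for the guide effect between regions in WENR-plus. Only the libraries compared gave 0 (3) for the medium in proximal Cdx2-sgRNA organoids, where that fit called 0 of 13518 genes, and 1 (2) for the medium effect between guides in proximal organoids. Apart from the filters, whose tested genes differ, the cause was not tested.

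Leaving out 1 library gave 1 to 3 calls (3) for the medium in proximal Cdx2-sgRNA, 0 to 1 (3) for Cdx2-sgRNA in distal WENR-minus, 1 to 3 (4) for region in Scramble-sgRNA WENR-minus, 3 to 6 (6) for region in Cdx2-sgRNA WENR-plus, 1 to 3 (1) for the guide effect between regions in WENR-plus and 1 to 3 (2) for the medium effect between guides in proximal organoids; a lone library is then assumed to vary like the other groups. Fold changes near 0 turned their sign: Cdx2-sgRNA in proximal WENR-minus ran from -0.33 to 0.48 for Slc26a2 and from -0.32 to 0.89 for Slc12a2, in distal WENR-minus from -0.12 to 0.75 for Slc9a2, and its difference between regions from -0.51 to 0.31 for Slc26a2. With TPM in place of CPM, the log2 ratio of Ano1 group means between media in distal Scramble-sgRNA organoids was -0.10 against 0.54; 6 further ratios kept their sign and moved by more than the spread of the replicates, over 1.5 times for Slc4a4 (-0.83 against -0.50) and Ano1 (1.03 against 1.57) between media in proximal Scramble-sgRNA organoids. With 2 libraries a group, and few reads of Slc26a6 and Best2, small changes were not detectable.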
